A study of Mus musculus with 117 samples.

Results

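The chromatin states of hepatocytes, the metabolic cells that make up most of the liver, were compared between NOD/ShiLtJ and NZO/HlLtJ mice. Both strains had chromatin immunoprecipitation sequencing (ChIP-seq) libraries from the liver of females 12 weeks old, with 3 mice for each of 4 histone marks (H3K4me1, H3K4me3, H3K27ac and H3K27me3). Each strain also had 1 input library, made from chromatin that no antibody had enriched. These are 26 of the 117 libraries of a series of 9 inbred strains, in which no strain carried a transgene or had a treatment that the labels name. The authors deposited 1 segmentation per strain, which gives each 200-bp bin the number of 1 of 14 chromatin states. Mice and marks are combined in it, so each strain is 1 value, no spread between mice can be given and no difference below has a test.

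The members were chosen by a rule on chromosomes 1 to 19, which hold 12313718 bins. States 1, 2 and 3 were called active and states 13 and 14 silent, which are working names taken over from the series as a whole. A run of bins that was active in one strain and silent in the other, 1 kb long or more, was called a switched segment. There were 595 segments active in NOD/ShiLtJ and silent in NZO/HlLtJ, and 553 in the opposite direction. They touched 230 and 286 protein-coding genes of 20665, where a gene is touched if a segment overlaps it or the 1 kb on either side. That is 1.11% and 1.38% of these genes, the background against which every gene list below was read. Touched genes and microRNAs were picked on the values of these 2 strains. The ranks of NOD/ShiLtJ and NZO/HlLtJ at them follow in part from that choice.

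Histone marks are chemical groups on the proteins that package DNA. H3K4me3 and H3K27ac are found at active gene starts and enhancers, H3K4me1 marks enhancers more broadly, and H3K27me3 marks genes held off by Polycomb proteins. A chromatin state is a recurring combination of such marks, and in the liver the active states lie at genes for plasma proteins, metabolism and detoxification. NOD/ShiLtJ is a strain in which females develop autoimmune diabetes, and NZO/HlLtJ is a strain that develops obesity with insulin resistance and, in males, diabetes. The sources used here do not say whether any mouse was diabetic. No mark is assigned to a state number here, because no mark content of the states was used.

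Starts are shown in sequence where switched segments covered most of the 1 kb on each side. Each line gives the 250 bases before the start that RefSeq lists for GRCm38.p6, the assembly known as mm10, on the reference genome and 5′ to 3′. Capitals mark letters that match a searched motif. The first 3 were active in NOD/ShiLtJ and silent in NZO/HlLtJ. The following 3 were silent in NOD/ShiLtJ and active in NZO/HlLtJ. Towards NZO/HlLtJ 5 starts were covered in full, Cd36, Cfhr3, Dzip1l, Fcgr3 and Gm4788, and the first 3 by name are shown. The last line, Gm4788, was added after its values were seen, since it neighbours Cfhr3 and shared its pattern over the 9 strains.
Cela2a (chr4:141826006-141826255, minus strand): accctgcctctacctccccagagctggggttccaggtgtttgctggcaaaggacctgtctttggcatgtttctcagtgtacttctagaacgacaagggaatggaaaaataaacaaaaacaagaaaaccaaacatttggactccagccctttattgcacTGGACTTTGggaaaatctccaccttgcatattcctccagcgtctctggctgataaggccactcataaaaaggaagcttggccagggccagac
Galnt9 (chr5:110603255-110603504, plus strand): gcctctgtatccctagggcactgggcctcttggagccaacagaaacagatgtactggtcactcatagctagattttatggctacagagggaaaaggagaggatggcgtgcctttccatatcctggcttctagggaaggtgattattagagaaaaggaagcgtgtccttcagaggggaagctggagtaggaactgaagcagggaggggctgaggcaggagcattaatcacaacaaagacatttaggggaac
Zfp872 (chr9:22187916-22188165, plus strand): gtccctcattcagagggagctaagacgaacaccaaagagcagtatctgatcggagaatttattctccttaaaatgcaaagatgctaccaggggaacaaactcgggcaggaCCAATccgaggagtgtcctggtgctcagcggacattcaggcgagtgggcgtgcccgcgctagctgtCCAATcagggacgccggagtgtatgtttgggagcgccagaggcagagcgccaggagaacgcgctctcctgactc
Cd36 (chr5:17835897-17836146, minus strand): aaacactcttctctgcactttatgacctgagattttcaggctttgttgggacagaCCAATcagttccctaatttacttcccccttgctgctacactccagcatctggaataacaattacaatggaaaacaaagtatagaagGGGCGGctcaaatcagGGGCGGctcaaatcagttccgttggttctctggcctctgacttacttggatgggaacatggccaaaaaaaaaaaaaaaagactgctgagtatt
Cfhr3 (chr1:139661007-139661256, minus strand): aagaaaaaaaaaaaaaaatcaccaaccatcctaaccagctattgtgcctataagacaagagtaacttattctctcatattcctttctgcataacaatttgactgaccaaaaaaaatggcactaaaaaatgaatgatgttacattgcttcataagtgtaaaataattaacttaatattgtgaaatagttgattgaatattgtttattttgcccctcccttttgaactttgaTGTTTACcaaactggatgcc
Dzip1l (chr9:99629281-99629530, plus strand): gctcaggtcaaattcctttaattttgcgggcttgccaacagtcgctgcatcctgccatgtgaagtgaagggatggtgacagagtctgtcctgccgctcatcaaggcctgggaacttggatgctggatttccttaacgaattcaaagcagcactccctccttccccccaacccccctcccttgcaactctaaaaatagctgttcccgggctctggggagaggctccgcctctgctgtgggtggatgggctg
Gm4788 (chr1:139781240-139781489, minus strand): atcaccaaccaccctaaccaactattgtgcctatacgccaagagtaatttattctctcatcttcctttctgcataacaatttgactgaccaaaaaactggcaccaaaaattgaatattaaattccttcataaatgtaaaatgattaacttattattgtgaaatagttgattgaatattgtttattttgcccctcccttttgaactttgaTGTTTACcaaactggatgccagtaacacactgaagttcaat

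A set of 9 motifs was searched on both strands in these windows and in those of 20085 protein-coding starts. In the Cela2a window, CAAAGTCCA, the letters of an HNF4 site, stood 92 bases before the start on the opposite strand, and 0.398% of all windows held it. HNF4 is a nuclear receptor that hepatocytes depend on. TGTTTAC, the forkhead motif, stood 20 bases before the start of Cfhr3 and 41 before that of Gm4788, against 2.64% of all windows. The Cfhr3 and Gm4788 windows shared a run of 77 identical letters, so reads from these copies can be hard to tell apart and their states are uncertain. The Cd36 window held CCAAT, at 35.3% of windows, 195 bases before the start, and GGGCGG, the GC box, at 43.4% of windows, 109 and 93 bases before it. The Zfp872 window held CCAAT 140 and 74 bases before the start. The Galnt9 and Dzip1l windows held none of these motifs, and none of the windows printed here held TATAAA (11.7% of all windows), CACGTG (6.69%), TTGCGCAA (0.194%), TTCNNNGAA (6.66%) or the HNF1 motif (0.00498%). Some of these motifs can share letters where they overlap. The median number of CG pairs was 2 in the windows of the 11 starts switched towards NOD/ShiLtJ and 3 in the 18 switched towards NZO/HlLtJ, against 10 over all windows.

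A microRNA locus also switched. The segment chr4:156055401-156056800, 1400 bp long, was active in NOD/ShiLtJ and silent in NZO/HlLtJ. It held the hairpin of Mir200b, and that of Mir200a lay within 1 kb. The miR-200 family is known for keeping cells epithelial. Their mature forms, from RefSeq for GRCm38.p6, are shown with the seed, bases 2 to 8, in capitals.
mmu-miR-200b-3p (chr4:156055685-156055706, minus strand): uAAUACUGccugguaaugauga
mmu-miR-200a-3p (chr4:156054911-156054932, minus strand): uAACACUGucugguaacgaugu
mmu-miR-200b-5p (chr4:156055721-156055742, minus strand): cAUCUUACugggcagcauugga
mmu-miR-200a-5p (chr4:156054949-156054970, minus strand): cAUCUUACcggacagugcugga
The 5p arms shared the seed AUCUUAC. The Mir200b hairpin with 1 kb on each side held 2200 bp of active DNA in NOD/ShiLtJ, 400 bp in 129S1/SvImJ and in A/J, and 0 bp in NZO/HlLtJ and the other 5 strains. NOD/ShiLtJ was thus highest of the 9 strains at this locus, which follows in part from the choice of the segment. Of 919 autosomal hairpins, 10 lay within 1 kb of a switched segment, or 1.09%. Those segments were all active in NOD/ShiLtJ, the direction in which 1.11% of protein-coding genes were touched. Hairpins are shorter than genes, and these lie in close groups and are not independent. Of the 10 hairpins only Mir200b lay inside a segment. The other 8 belong to the miR-290 cluster, known from embryonic stem cells. It overlaps an end of the annotated Nlrp12 gene on chromosome 7, so its segments also count for Nlrp12. Around Mir295 there were 2400 bp of active DNA in NOD/ShiLtJ and in A/J, 1400 bp in C57BL/6J, 800 bp in NZO/HlLtJ, 400 bp in PWK/PhJ and 0 bp in the other 4.

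The labelled cell type was checked on marker genes. The starts of all 16 hepatocyte marker genes with a known start, such as Alb and Apoa1, held active DNA in both strains, and none of the 20 marker genes was touched. None of the 12 developmental regulators with a known start held any. State 3 was found at 37.7% of the protein-coding start bins in NOD/ShiLtJ and at 40.9% in NZO/HlLtJ. At positions 10 kb lower on the chromosome, whatever the strand of the gene, it was found at 0.961% and 1.18%. The files hold no read depth, so no interval for counting error is given.

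The first question was how alike the hepatocyte states of the strains were. The same state was found in 85.6% of autosomal bins, and Cohen's kappa, which corrects this share for the state frequencies, was 0.638. Among the 15 pairs of laboratory strains, which leave out CAST/EiJ, PWK/PhJ and WSB/EiJ, this was the lowest percentage, in a range from 85.6% to 88.1% with a median of 86.3%. Kappa was 14th of these 15. The pair had 1148 switched segments in all, the second most of the 15 laboratory pairs, which ran from 731 to 1186 with a median of 1022. Over all 36 pairs, which share strains and are not independent, the pair was 16th in percentage and 23rd in segments.

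**Figure D1:**
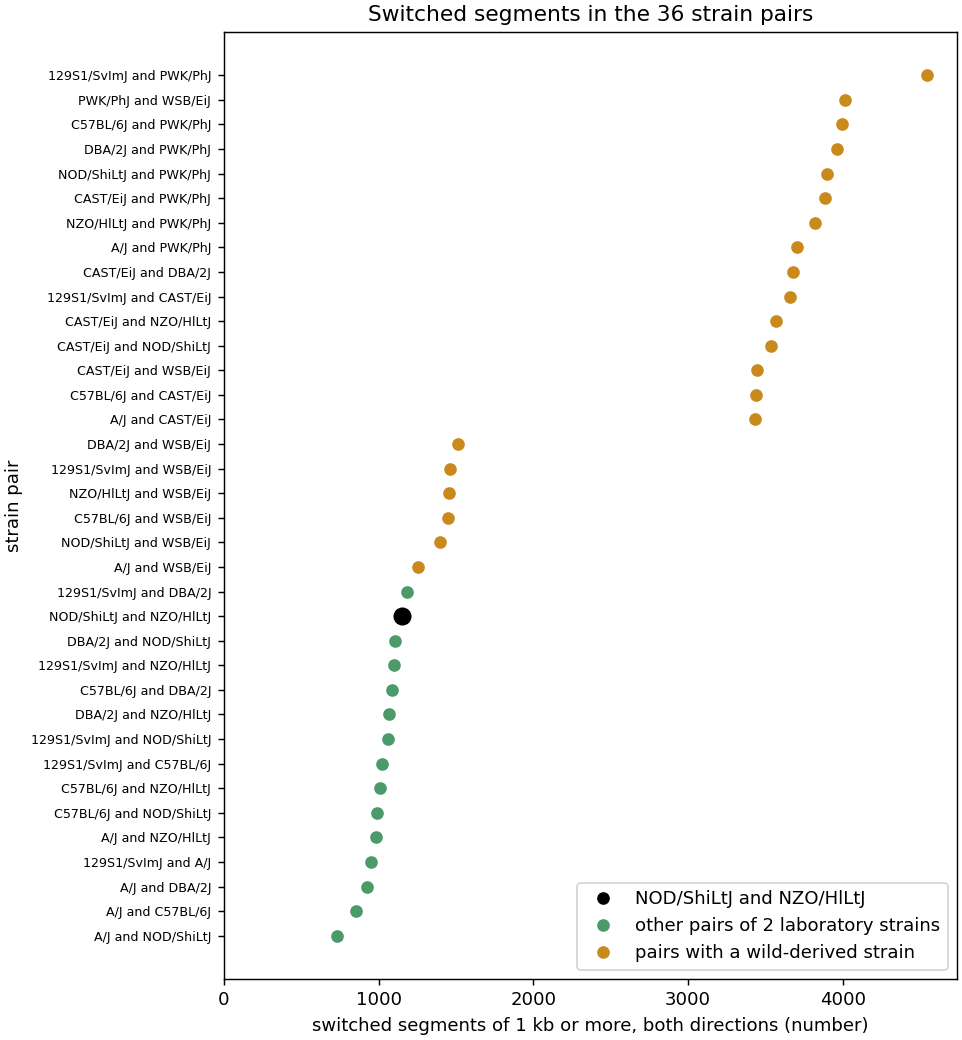
Number of switched segments of 1 kb or more, both directions summed, in each of the 36 strain pairs. The pair of NOD/ShiLtJ and NZO/HlLtJ, in black at 1148, lies second from the top of the laboratory pairs in green, below all pairs with a wild-derived strain in orange.

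The bins in which the strains disagreed, 1768957 or 14.4%, were mostly swaps among states without active DNA. Swaps between states 13 and 14 made up 52.2% of them. State 13 in NOD/ShiLtJ against 14 in NZO/HlLtJ was found in 556258 bins, and the reverse in 366386 bins. Swaps of state 4 with 14 came next at 10.9%, with 88682 bins at 4 in NOD/ShiLtJ and 103892 at 4 in NZO/HlLtJ. Swaps of state 6 with 14 made up 7.61%, with 72144 and 62497 bins.

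The most one-sided of the frequent swaps involved state 9. It stood against state 14 in 82213 bins with 9 in NOD/ShiLtJ and in 6849 bins with 9 in NZO/HlLtJ, a 12.0-fold difference. Between states 4 and 9, 9823 bins had 9 in NOD/ShiLtJ and 653 had 9 in NZO/HlLtJ, a 15.04-fold difference. State 9 covered 1.59% of autosomal bins in NOD/ShiLtJ, the highest of the 9 strains, and 0.924% in NZO/HlLtJ, while the other 7 ran from 0.271% to 0.971%. Of the state 9 bins of NZO/HlLtJ, 77.6% carried it in NOD/ShiLtJ, but of those of NOD/ShiLtJ 45.0% carried it in NZO/HlLtJ. State 4 went the other way, with 1.89% in NOD/ShiLtJ, the lowest of the 9 strains, and 2.40% in NZO/HlLtJ.

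**Figure D2:**
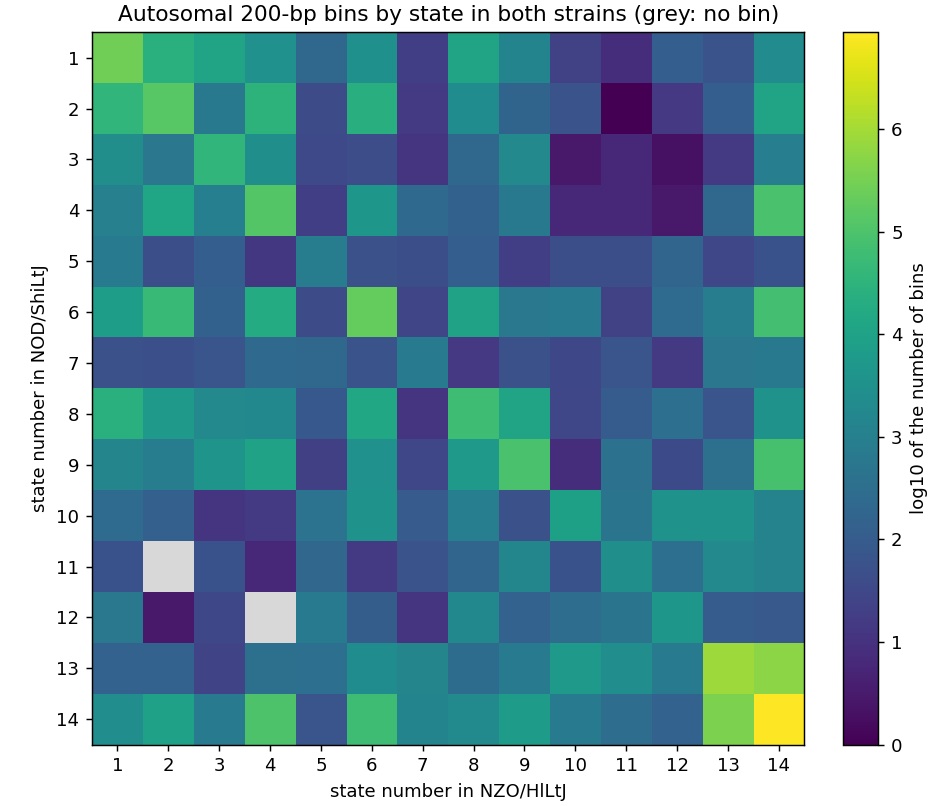
Autosomal 200-bp bins by their state in NOD/ShiLtJ (rows) and NZO/HlLtJ (columns), coloured by log10 of their number, with grey where there was no bin. The diagonal holds the 85.6% of bins in the same state, and the row of state 9 is brighter at column 14 (82213 bins) than the row of state 14 is at column 9 (6849 bins).

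Active states covered 4.99% of bins in NOD/ShiLtJ and 5.21% in NZO/HlLtJ. State 3, which sits at gene starts, covered 0.381% in NOD/ShiLtJ and 0.466% in NZO/HlLtJ, where it was the highest of the 9 strains. States 1 and 3 were unequal too: 11176 bins had 1 in NOD/ShiLtJ and 3 in NZO/HlLtJ, against 2771 in the reverse. Of the active bins of NOD/ShiLtJ, 84.2% were active in NZO/HlLtJ, 13.4% had one of states 4 to 12 there and 2.40%, or 14759 bins, were silent. In the reverse direction 13112 bins were active in NZO/HlLtJ and silent in NOD/ShiLtJ. A full change between active and silent was thus the rarest outcome for an active bin.

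The switched segments were short and mostly lay away from gene starts. Those active in NOD/ShiLtJ summed to 911.6 kb, had a median length of 1200 bp and reached 8200 bp. Those active in NZO/HlLtJ summed to 877.6 kb, had the same median of 1200 bp and reached 10000 bp. On the active side, state 2 led in 427 of 595 and 356 of 553 segments, and state 3 in 27 and 18. On the silent side, state 14 led in 581 and 535. The larger number in NOD/ShiLtJ depended on the length rule, since at 2 kb or more there were 112 and 116 segments. With state 4 also counted as active there were 7883 and 8740.

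Within 1 kb of the start of a protein-coding gene lay 2.02% of the segments active in NOD/ShiLtJ and 3.44% of those active in NZO/HlLtJ. All active runs of 1 kb or more lay there in 21.9% and 21.5% of cases. Gene bodies held 48.4% of the segments active in NOD/ShiLtJ and 69.4% of those active in NZO/HlLtJ, against 71.4% and 74.2% of all active runs. No protein-coding gene lay within 1 kb of 50.1% and 30.0% of the segments. The flanking bins were most often in state 4 in the active strain (33.3% and 38.0%) and in state 14 in the silent strain (62.8% and 67.9%). In 42.7% and 51.4% of cases the segment was the whole active run.

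The other 7 strains, which the rule did not use, were split over these segments. A strain counted as active in a segment where at least 50% of its bins were active, and as silent where more than 50% were silent. The median segment was active in 2 of the 7 in both directions. In 128 segments active in NOD/ShiLtJ and 100 active in NZO/HlLtJ none of the 7 was active, and in 14 and 17 all 7 were. A/J had the state of NOD/ShiLtJ in 51.2% of the 1148 segments and that of NZO/HlLtJ in 37.7%. WSB/EiJ also had that of NOD/ShiLtJ more often, at 48.5% against 39.8%. PWK/PhJ went the other way, at 39.3% against 47.7%, and 129S1/SvImJ was near even, at 45.6% against 42.9%.

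**Figure D3:**
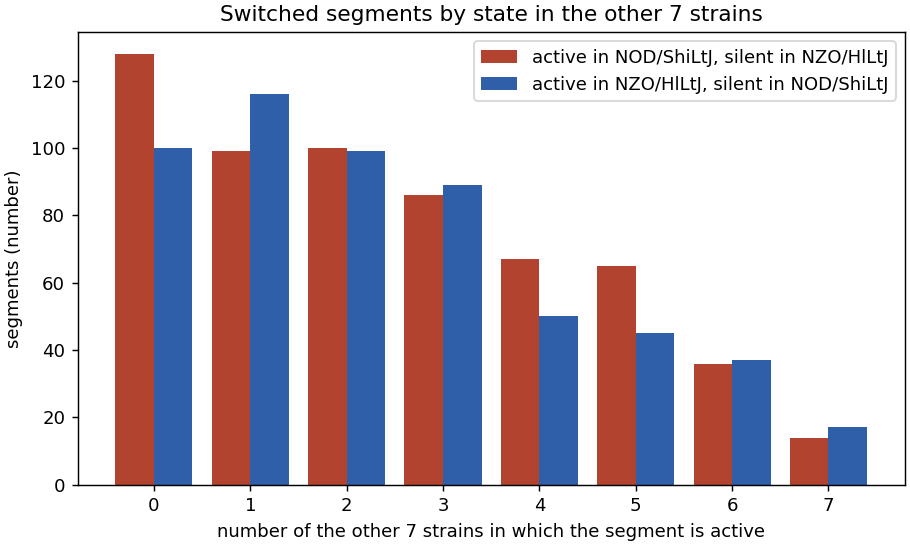
Number of switched segments (vertical axis) by how many of the other 7 strains were active there (horizontal axis), with red bars for segments active in NOD/ShiLtJ and blue bars for those active in NZO/HlLtJ. Both directions fall off towards 7, where 14 and 17 segments remain, and 128 and 100 segments were active in none of the 7.

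The clearest changes were those in which a single strain stood apart from the other 8. In 17 segments, 30.8 kb in all, every strain but NOD/ShiLtJ was active. The longest switched segment of all was one of these, chr10:127151201-127161200, at 10000 bp. It lay 3.956 kb from B4galnt1, an enzyme that builds complex gangliosides, and a second of these, of 1400 bp, lay 0.356 kb from that gene. B4galnt1 with 1 kb on each side held 400 bp of active DNA in NOD/ShiLtJ, 5400 bp in NZO/HlLtJ, 5400 bp in PWK/PhJ and between 5800 and 7400 bp in the other 6 strains. NOD/ShiLtJ was below the range of the other 8, which follows in part from choosing segments in which only NOD/ShiLtJ was not active. Others of the 17 lay in Cd36, Igf2r, which codes for the receptor that clears insulin-like growth factor 2, Cyp2a12 and Tlr11, a Toll-like receptor. In 14 segments, 24.6 kb in all, every strain but NZO/HlLtJ was active. The longest, chr16:97536201-97540400, overlapped Mx2, a gene named for interferon-induced resistance to viruses that the annotation used here does not list as protein-coding. Others lay in Cndp1, which codes for a dipeptidase, Fgr, a tyrosine kinase of myeloid cells, and Nln, a peptidase, and 1 lay 19.537 kb from Lepr, the leptin receptor gene.

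Segments active in 1 strain and silent in all other 8 numbered 24 for NOD/ShiLtJ and 25 for NZO/HlLtJ. The longest for NOD/ShiLtJ was chr3:65871601-65879200, at 7600 bp and 35.074 kb from Lekr1. Next was chr19:23281001-23288200, at 7200 bp and 7.079 kb from Smc5, with 2 shorter ones following it towards Mamdc2. Genes with such a segment were Grm7, Ubash3b, A2ml1, Cplane1, Bcl11a, Myo1d, Piezo2, Taf4b and Zfyve28. For NZO/HlLtJ the longest, chr1:171057801-171061400, at 3600 bp, lay in Fcgr3, and a second of 2400 bp lay in the same gene. One of 2000 bp lay 2.383 kb from H2-Ab1, a class II histocompatibility gene, and others lay in Ptprn2, Dym, Itpr2 and Ogfod3.

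At gene starts, Cd36 and Cfhr3 were among those whose whole window changed. Start windows, 1 kb on each side of a start, were touched in 11 of 16457 protein-coding genes by segments active in NOD/ShiLtJ (0.0668%) and in 18 by those active in NZO/HlLtJ (0.109%). The whole window was switched in 1 and 5 of them. For a gene with several starts, the start with the most switched DNA was used. Its values need not hold for other starts of that gene. The starts used for Cd36, Galnt9 and A4gnt lie inside their genes. Cd36 codes for a fatty acid translocase that brings fatty acids into cells. The start used for Cd36, at position 17835896 on the minus strand, lies well inside the gene, whose outer end is at 17888959. Its start window, on chromosome 5, held 0 bp of active DNA in NOD/ShiLtJ, 2200 bp in NZO/HlLtJ, C57BL/6J and PWK/PhJ, 2000 bp in 129S1/SvImJ, 1800 bp in A/J, 1600 bp in CAST/EiJ and WSB/EiJ, and 1200 bp in DBA/2J. NOD/ShiLtJ stood alone, with state 14 at this start against state 1 in all other 8 strains. Over the whole gene, Cd36 held 8200 bp of active DNA in NOD/ShiLtJ and 26000 bp in NZO/HlLtJ, with 7600 bp switched in 6 segments.

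Cfhr3 codes for a plasma protein of the complement system. Its start window held 0 bp of active DNA in NOD/ShiLtJ and WSB/EiJ and 2200 bp in NZO/HlLtJ and the other 6 strains. Gm4788, a neighbouring gene, had the same pattern, with 0 bp in NOD/ShiLtJ and WSB/EiJ, 2000 bp in PWK/PhJ and 2200 bp in the other 6. NOD/ShiLtJ and WSB/EiJ shared the silent form, with no overlap with the other 7.

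Other starts were active in NZO/HlLtJ and few strains besides. The start window of Fcgr3, an activating receptor for immunoglobulin G, held 2200 bp of active DNA in NZO/HlLtJ and 0 bp in all other 8. Dzip1l, a gene of the primary cilium, held 2200 bp in NZO/HlLtJ, 1400 bp in PWK/PhJ, 1000 bp in DBA/2J and 0 bp in NOD/ShiLtJ and the other 5. Its neighbour A4gnt, a glycosyltransferase gene, held 2000 bp in NZO/HlLtJ and PWK/PhJ, 1600 bp in DBA/2J and 0 bp in the other 6. These neighbours thus had one pattern, with NZO/HlLtJ, PWK/PhJ and DBA/2J apart from the rest. Mrap2, which codes for an accessory protein of melanocortin receptors, held 1800 bp in DBA/2J, 1200 bp in NZO/HlLtJ and 0 bp in the other 7.

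Among the 18 genes with a start switched towards NZO/HlLtJ were a pair of Toll-like receptor genes, which code for sensors of microbes. This family was not one of the gene lists, so no share of it is given. Tlr12 held 0 bp in NOD/ShiLtJ and PWK/PhJ, 2200 bp in NZO/HlLtJ, C57BL/6J and DBA/2J, 2000 bp in A/J and 1400 bp in the other 3. Tlr11 held 0 bp in NOD/ShiLtJ, 1000 bp in A/J, C57BL/6J, DBA/2J and WSB/EiJ, and 1200 bp in the other 4, NZO/HlLtJ among them. NOD/ShiLtJ was the lowest of the 9 at Tlr11 and shared the lowest value at Tlr12. Slco1c1, a transporter of thyroid hormone, held 0 bp in NOD/ShiLtJ and WSB/EiJ, 1400 bp in NZO/HlLtJ and between 1200 and 1800 bp in the other 6.

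Among starts switched towards NOD/ShiLtJ, Cela2a changed most. It codes for an elastase known from the pancreas, and it holds the longest segment of this direction, chr4:141820401-141828600, at 8200 bp. Its start window held 2200 bp of active DNA in NOD/ShiLtJ and A/J, 2000 bp in C57BL/6J, 1800 bp in 129S1/SvImJ and 0 bp in NZO/HlLtJ and the other 4. The strains formed 2 groups that did not overlap. Galnt9, a gene of mucin-type glycosylation, held 1600 bp in NOD/ShiLtJ, 1400 bp in C57BL/6J, DBA/2J and WSB/EiJ, 1200 bp in A/J and 0 bp in NZO/HlLtJ and the other 3. Zfp872, a zinc finger gene, held 2200 bp in NOD/ShiLtJ and CAST/EiJ, 0 bp in NZO/HlLtJ and A/J, and between 600 and 1200 bp in the other 5. Amy1, an amylase gene that the liver also uses, held 1600 bp in NOD/ShiLtJ, 400 bp in NZO/HlLtJ and 600 bp in all other 7, so that NOD/ShiLtJ was highest and NZO/HlLtJ lowest.

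**Figure D4:**
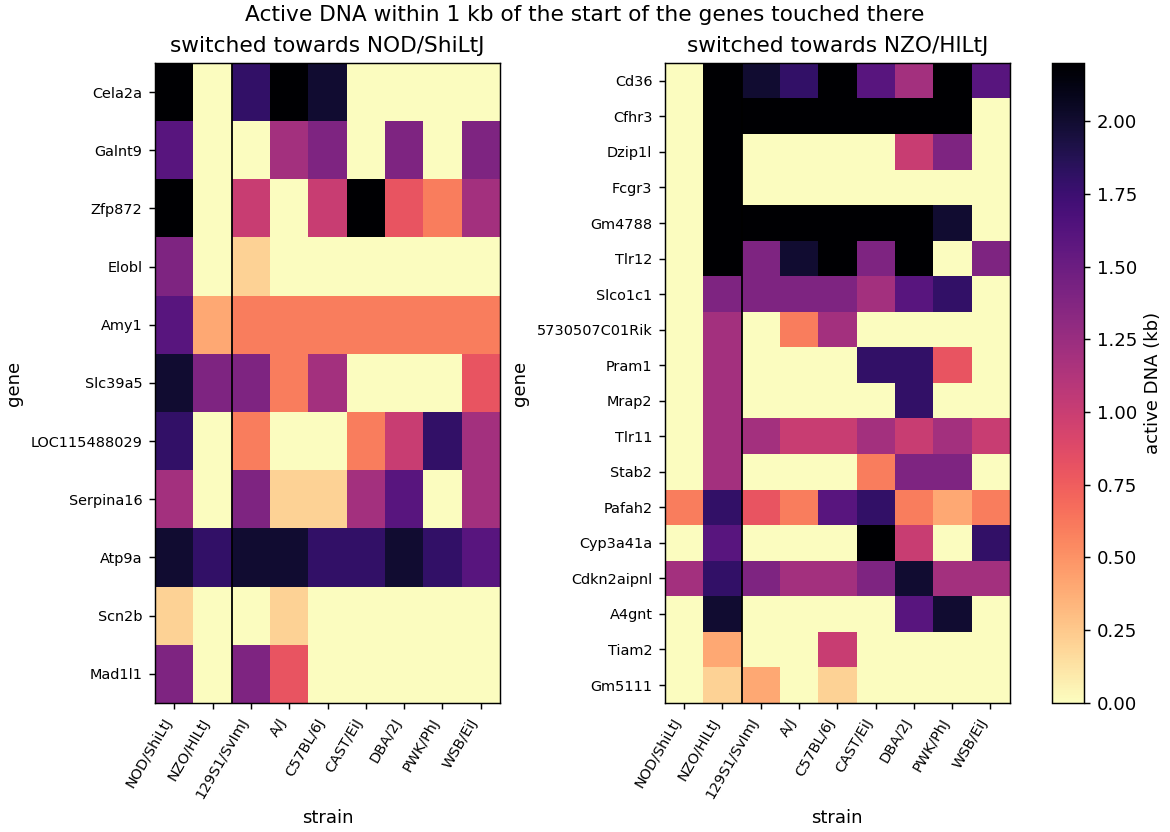
Active DNA in kb within 1 kb of the start with the most switched DNA of each gene touched there, by strain. The 11 genes touched by segments active in NOD/ShiLtJ are on the left. The 18 touched by segments active in NZO/HlLtJ are on the right. NOD/ShiLtJ and NZO/HlLtJ come first, and darker colours show more active DNA. Cd36 is at 0 in NOD/ShiLtJ alone, Fcgr3 is above 0 in NZO/HlLtJ alone, and Cfhr3 and Gm4788 are at 0 in NOD/ShiLtJ and WSB/EiJ.

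Within gene bodies, the genes with the most DNA active in NOD/ShiLtJ and silent in NZO/HlLtJ were led by Kcnip4, which codes for a potassium channel-interacting protein, with 11600 bp in 5 segments. Kcnip4 held 12800 bp of active DNA in NOD/ShiLtJ, 0 bp in NZO/HlLtJ, 2600 bp in PWK/PhJ and between 5800 and 12400 bp in the other 6. Il1r1, the receptor of interleukin-1, was next with 8800 bp in 6 segments. It held 45400 bp in NOD/ShiLtJ, 18000 bp in NZO/HlLtJ and between 25200 and 40200 bp in the other 7. NOD/ShiLtJ was the highest and NZO/HlLtJ the lowest of the 9 at Il1r1, which follows in part from how the gene was picked. Nlrp12, a NOD-like receptor gene, held 17800 bp in NOD/ShiLtJ, 3200 bp in NZO/HlLtJ, 20200 bp in A/J, 14000 bp in C57BL/6J and between 600 and 6000 bp in the other 5. Cyp39a1, an oxysterol hydroxylase of bile acid synthesis, held 10400 bp in NOD/ShiLtJ, 600 bp in NZO/HlLtJ, 1400 bp in PWK/PhJ and between 8000 and 16800 bp in the other 6. The rest of the first 15 were Grm7, Cela2a, Sorcs3, Gm4951, Sox5, Hs6st3, Klf12, Aldh16a1, Usp47, Cndp1 and Rftn1, with 8000 to 4400 bp switched.

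In the opposite direction Pde1a, a calmodulin-dependent phosphodiesterase gene, led with 21200 bp in 9 segments. Pde1a held 45200 bp of active DNA in NZO/HlLtJ, 9600 bp in NOD/ShiLtJ and between 12000 and 38600 bp in the other 7. NZO/HlLtJ was the highest and NOD/ShiLtJ the lowest of the 9, which again follows in part from how the gene was picked. Tiam2, an exchange factor of the GTPase Rac, had 13800 bp switched and held 26000 bp in NZO/HlLtJ and 6800 bp in NOD/ShiLtJ. Myom2, a gene of the muscle sarcomere, held 11400 bp in NZO/HlLtJ, 14200 bp in PWK/PhJ, 10800 bp in 129S1/SvImJ and 0 bp in NOD/ShiLtJ and the other 5. Sult2a7, a sulfotransferase gene of a multi-copy family in which reads can be shared, held 13400 bp in NZO/HlLtJ, 200 bp in NOD/ShiLtJ and between 0 and 3400 bp in the other 7. BC053393 held 6400 bp in NZO/HlLtJ and DBA/2J, 6600 bp in C57BL/6J and 0 bp in the other 6. The rest of the first 15 were Mbnl2, Srgap3, Cep85, Cd36, Dzip1l, Etv6, Fcgr3, Skint6, Clstn2 and Itpr2, with 8600 to 6600 bp switched.

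Of 20665 protein-coding genes, 504 were touched in either direction and 12 in both. A longer gene has more room for segments, and gene length was not adjusted for. The 12 were Arhgap10, Arl15, Btbd9, Cdk14, Ctif, Itpr2, Mrvi1, Nav2, Sh3rf1, Tenm3, Tiam2 and Tmem108. Itpr2, the inositol trisphosphate receptor that releases calcium in hepatocytes, had 3000 bp active in NOD/ShiLtJ alone of the pair and 6600 bp active in NZO/HlLtJ alone. Its total was close to even, with 48200 bp in NOD/ShiLtJ and 49800 bp in NZO/HlLtJ. It lies in chr6:146000001-147000000, which with chr9:99000001-100000000 held the most segments of any 1-Mb window, 11 each.

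None of 26 listed genes of fatty acid oxidation, 29 of cholesterol and bile acids or 31 of acute phase and complement was touched in either direction. These lists do not hold every gene of their pathways: Cyp39a1 and Cfhr3, described above, were touched and are not in them. Of 27 genes of insulin and growth hormone signalling 1 was touched, Igf2r, which held 6600 bp of active DNA in NOD/ShiLtJ, the lowest of the 9 strains, and 11800 bp in NZO/HlLtJ. Of 24 genes of glucose production and glycolysis 1 was touched, Ppargc1a, the coactivator of glucose production, with 37000 bp in NOD/ShiLtJ and 39000 bp in NZO/HlLtJ, and a switched segment of 1000 bp. Of 30 genes of fatty acid synthesis and lipid droplets 1 was touched, Cd36. A count of 0 or 1 in lists of this size is near the background of 1.11% and 1.38%.

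Detoxification genes were touched a few at a time. Of 80 cytochrome P450 genes, 1 was touched by segments active in NOD/ShiLtJ and 3 by those active in NZO/HlLtJ, which is 1.25% and 3.75%. Cyp2b10, which is induced by drugs, held 22800 bp of active DNA in NOD/ShiLtJ, the highest of the 9, and 12000 bp in NZO/HlLtJ. Cyp2a12 held 4200 bp in NOD/ShiLtJ, 9200 bp in NZO/HlLtJ and between 8800 and 10000 bp in the other 7. Cyp3a41a held 2800 bp in NOD/ShiLtJ and 18200 bp in NZO/HlLtJ, and Cyp3a16 held 1000 and 7400 bp. NOD/ShiLtJ was lowest of the 9 at these 3, but the Cyp3a genes are near copies and their states are uncertain. Of 66 conjugation genes 2 were touched in each direction, Sult6b2 and Sult3a1 towards NOD/ShiLtJ and Sult2a7 and Gstm7 towards NZO/HlLtJ. Mup19 was the only one touched of 24 major urinary protein genes, with 4400 bp in NOD/ShiLtJ and 6200 bp in NZO/HlLtJ.

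Of 23 Serpina genes, which code for inhibitors of serine proteases, 3 were touched by segments active in NOD/ShiLtJ, or 13.04% against 1.11%, and 0 by those active in NZO/HlLtJ, against 1.38%. Serpina3a held 3800 bp of active DNA in NOD/ShiLtJ, 0 bp in NZO/HlLtJ, A/J and PWK/PhJ, and between 600 and 3000 bp in the other 5. Serpina11 held 9200 bp in NOD/ShiLtJ, the highest of the 9, and 5800 bp in NZO/HlLtJ. Serpina16 held 1400 bp in NOD/ShiLtJ and 0 bp in NZO/HlLtJ, with 241 bp in a switched segment. These 3 lie close together on chromosome 12 in a family of near copies, and so are not independent. Over the 20 Serpina genes with active DNA in either strain, the median difference was 700 bp more in NOD/ShiLtJ, against a median of 200 bp less over the 13706 such protein-coding genes.

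Of 31 candidate genes for NOD diabetes, 2 were touched by segments active in NOD/ShiLtJ, or 6.45% against 1.11% of all protein-coding genes, and 0 by those active in NZO/HlLtJ. These were Il6st, the shared receptor chain of the interleukin-6 family, with 14000 bp of active DNA in NOD/ShiLtJ and 10600 bp in NZO/HlLtJ, and H2-Eb1, a class II histocompatibility gene, with 1000 and 1600 bp. H2-Eb1 therefore had a segment towards NOD/ShiLtJ although its total was higher in NZO/HlLtJ. Of 28 candidate genes for obesity and diabetes in NZO, 3.57% were touched towards NOD/ShiLtJ, which was Pcp4l1, and 7.14% towards NZO/HlLtJ, Ildr2 among them, against 1.11% and 1.38%. In lists of this size 1 or 2 genes make up such a share. Ildr2 held 12200 bp in NOD/ShiLtJ and 24200 bp in NZO/HlLtJ, within the range of 8800 to 30400 bp of the other 7. Of 38 histocompatibility genes 1 was touched in each direction, or 2.63%, H2-Eb1 towards NOD/ShiLtJ and H2-T22 towards NZO/HlLtJ. Of 62 NK receptor and C-type lectin genes 2 were touched towards NZO/HlLtJ, Clec2f and Clec2g, or 3.23%, and of 35 immunoglobulin-like and paired receptor genes 1 was, Fcgr3, or 2.86%. None of these last 2 lists was touched towards NOD/ShiLtJ. None of 79 listed interferon and GTPase genes and none of 1458 olfactory and vomeronasal receptor genes was touched. Of the 1458 only 11 held active DNA in either strain, so few of them could be touched. The list of 79 does not hold every such gene: Mx2, described above, overlapped a switched segment and is not in it.

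A few genes known from other liver cells were among those touched. Of 12 endothelial markers 1 was touched towards NZO/HlLtJ, Stab2, or 8.33% against 1.38% of all protein-coding genes. The same share held for 12 Kupffer cell and macrophage markers, with Csf1r. In lists of this size 1 gene makes up such a share. None of 14 T cell, 9 B cell, 11 stellate cell and 10 bile duct markers was touched. Stab2, a scavenger receptor of sinusoidal endothelium, held 0 bp of active DNA at the start in NOD/ShiLtJ and 1200 bp in NZO/HlLtJ. Over the whole gene Stab2 went the other way, with 28600 bp in NOD/ShiLtJ and 26400 bp in NZO/HlLtJ. Csf1r, the growth factor receptor of macrophages, held 3600 bp over the gene in NOD/ShiLtJ and 5800 bp in NZO/HlLtJ. Over the starts of 8 endothelial markers, active DNA summed to 400 bp in NOD/ShiLtJ and 3800 bp in NZO/HlLtJ, and to between 200 and 7400 bp in the other 7 strains. It was at 0 for 7 of the 8 in NOD/ShiLtJ and for 4 in NZO/HlLtJ. Over 9 Kupffer cell and macrophage markers the sum was 0 bp in NOD/ShiLtJ, 1800 bp in NZO/HlLtJ and 0 to 1800 bp in the other 7. In NZO/HlLtJ 8 of the 9 were at 0, all but Cd68. Of the other lists, stellate cell markers shared this direction, while bile duct and T cell markers did not. Bile duct markers summed to 3400 bp in NOD/ShiLtJ, 2200 bp in NZO/HlLtJ and 800 to 3200 bp in the other 7. In NOD/ShiLtJ and NZO/HlLtJ, T cell markers summed to 400 and 200 bp, stellate cell markers to 1800 and 2400 bp, and B cell markers to 0 bp in both. The part of other cells in the values of Stab2, Csf1r and Fcgr3 was not tested. In such bulk samples fewer cells of a type and less signal per cell cannot be told apart.

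Along the genome the segments were unevenly spread. Of 2454 windows of 1 Mb, 1849 held none. Chromosome 17 had the most per Mb, 0.790, and chromosome 16 the fewest, 0.061, with 3 segments in each direction. On chromosome 16 the 15 laboratory pairs ran from 6 to 31 segments with a median of 23, and the pair studied here was the lowest. The longest stretches without a segment, 38.4 Mb and 37.6 Mb, were both on chromosome 16. Agreement over chromosome 16 was 86.5% of bins, close to the 85.6% over all autosomes. There 23300 bins had state 13 in NOD/ShiLtJ and 14 in NZO/HlLtJ, against 13017 in the reverse, so the swap of states 13 and 14 went on where switched segments were nearly absent.

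**Figure D5:**
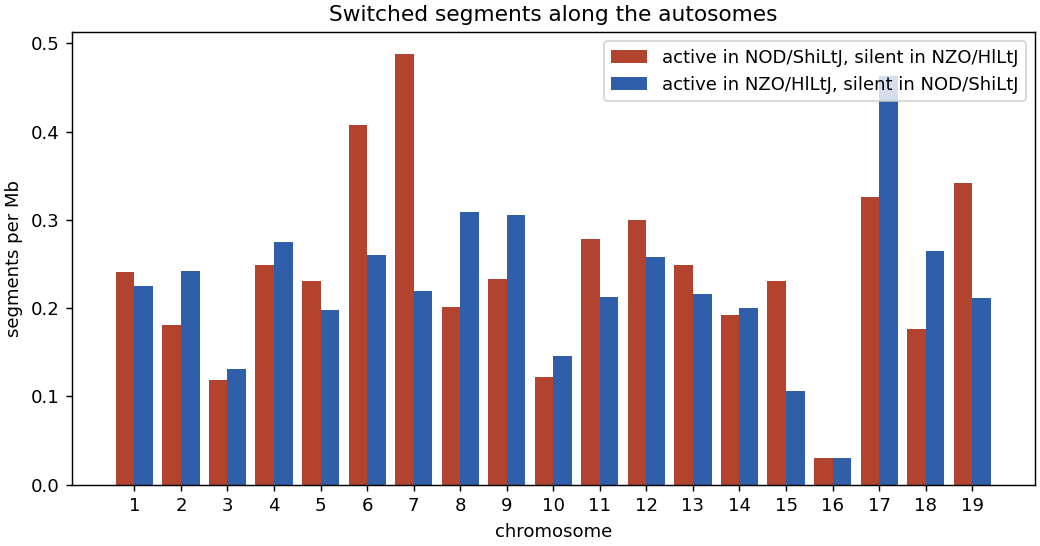
Switched segments per Mb (vertical axis) on chromosomes 1 to 19 (horizontal axis), with red bars for segments active in NOD/ShiLtJ and blue bars for those active in NZO/HlLtJ. Chromosome 16 is nearly empty, with 3 segments in each direction, and chromosome 7 is the most unequal, with 71 and 32.

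Chromosome 7 held 71 segments active in NOD/ShiLtJ and 32 active in NZO/HlLtJ. Of the 71, 25 lay in a stretch of 4.98 Mb, chr7:35088201-40068400, which held 0 segments in the other direction. It contains Cebpa, a transcription factor gene of hepatocytes, near one end and Tshz3 and Zfp536 further along, but 24 of the 25 segments had no protein-coding gene within 1 kb. The segments summed to 49.6 kb, with a median of 1400 bp. Of the 25, 19 were active in 129S1/SvImJ, 18 in A/J and 18 in WSB/EiJ, while 3 were active in CAST/EiJ, 1 in C57BL/6J, 1 in DBA/2J and 0 in PWK/PhJ. The strains thus fell into 2 sets over this stretch.

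The stretch was picked for its segments, so that NOD/ShiLtJ had more active DNA there than NZO/HlLtJ follows in part from that choice. Active DNA over the whole stretch, switched or not, came to 327.6 kb in NOD/ShiLtJ, 350.0 kb in 129S1/SvImJ, 309.4 kb in WSB/EiJ and 292.6 kb in A/J. It came to 212.8 kb in NZO/HlLtJ, 220.0 kb in PWK/PhJ, 227.4 kb in DBA/2J, 238.2 kb in C57BL/6J and 248.0 kb in CAST/EiJ. The sets did not overlap, and NZO/HlLtJ was the lowest of the 9. These totals include the 49.6 kb of segments on which the stretch and the sets were chosen. The gap between the sets thus follows in part from that choice. Over all of chromosome 7 active DNA was 7289 kb in NOD/ShiLtJ and 7463 kb in NZO/HlLtJ. Without these 25 segments chromosome 7 held 46 active in NOD/ShiLtJ against 32.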

How the data were processed

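The part studied here rests on 26 libraries, 13 per strain, grouped by the strain in their labels. The authors' deposited files give 1 segmentation per strain, whose values are a category in steps of 200 bp, the state number, with no score, count or signal in use. Per the submitters' processing notes the genome build was mm10, and FastQC 0.11.5 and MACS 1.4.2 were used, with no role given. The aligner and the segmentation tool are not given in the sources used here. Depth is unknown. The series' design text names H3K4me3 in 2 places and leaves out H3K27me3, while the labels have H3K27me3. A joined file of all strains was identical to the strain files laid end to end and was not used.

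States were compared bin by bin on chromosomes 1 to 19 with Python 3.11.15, numpy 2.4.6 and pandas 2.3.3, and figures drawn with matplotlib 3.10.9. Genes, promoters and microRNAs came from RefSeq tables of GRCm38.p6. The code was tested on simulated data. Genes were named by rule: those of the 10 longest segments, the 15 genes and 15 starts with the most switched DNA per direction, and touched members of the lists. Segments in which 1 strain stood apart, Gm4788, B4galnt1, the microRNAs and the stretch of chromosome 7 were chosen after their values were seen. The members and lists were chosen with earlier results of these data known. Alternatives covered other active and silent states, lengths, gaps, bin sizes and gene windows. Some touched genes are not reported here.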

Additional observations from a re-analysis of the deposited data

How the results depend on the processing

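No paired analysis was possible because each strain is 1 combined segmentation with no mice of its own, and no replicate could be left out for the same reason. Of 38 alternative values, 14 stayed within 1.5 times the reported count. Segments active in NOD/ShiLtJ and in NZO/HlLtJ numbered 7883 and 8740 with state 4 counted as active, 12 and 15 with state 13 alone as silent, 1574 and 1469 from 600 bp, and 112 and 116 from 2000 bp. NOD/ShiLtJ had more in 7 of the 10 settings run, the reported one included, and fewer with state 4, with state 13 alone and from 2000 bp. Agreement was 50.2% (kappa 0.373) over bins outside state 14 in at least 1 strain, 93.1% (0.703) with states 13 and 14 merged, 88.5% (0.695) with a match within 1 bin, 86.1% (0.643) in 1000-bp bins and 86.3% (0.695) with chromosome X. Percent agreement and kappa have no replicate spread, so every such value counts as moved. Genes touched towards NOD/ShiLtJ and NZO/HlLtJ numbered 32 and 41 at gene ends alone, 49 and 66 from 2000 bp, and 2048 and 3561 with state 4 as active. Those alternatives test fewer or more bins by construction. Depth is unknown, so what it limits cannot be stated.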

Other observations

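Chromosome X, which the comparison left out, was mostly in state 13, at 86.8% of its bins in NOD/ShiLtJ and 88.5% in NZO/HlLtJ, with state 14 at 9.49% and 8.05%. Adding it brought 1 more segment active in NOD/ShiLtJ, 596 in all, and left those active in NZO/HlLtJ at 553.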
